A study of Mus musculus with 12 samples.

Results

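The 9 genes described here, Irf4, Batf, Prdm1, Icos, Tigit, Havcr2, Klrg1, Itgae and Cd44, are associated with the maturation of regulatory T cells (Treg) from a resting to an effector state. They were taken by symbol from the count files, and all 9 were found among the 23337 symbols. All 9 also passed the filter on low counts, which kept 12038 genes for testing. RNA-seq was made from C57BL/6 mice aged 8 weeks, with 3 libraries in each of 4 groups. Natural Treg (nTreg) were sorted as CD4+GFP+ cells from spleen and lymph nodes. Induced Treg (iTreg) came from CD4 T cells that were kept for 5 days with IL2 and TGFbeta, after which the GFP-positive cells were taken. In both kinds of cell the WT label stands for Hrd1 +/flox and the KO label for Hrd1 flox/flox, and all 4 groups carry FoxP3-cre+-GFP. Syvn1 encodes Hrd1, an E3 enzyme in the membrane of the endoplasmic reticulum that helps to dispose of misfolded proteins.

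The design sets limits on both labels. Cre is driven by Foxp3, so the flox alleles can recombine only in cells that express or have expressed Foxp3, and the WT-labelled cells can have lost 1 copy of Hrd1. No group has 2 unfloxed copies. GFP, the reporter used in both isolations, follows Foxp3 as well, so Foxp3 itself was used to choose the cells. The labels do not say whether libraries of a group came from separate mice, and p-values measure the spread between libraries. Transcripts that mark sex, given below, differed between libraries of both nTreg groups and of WT-labelled iTreg. The libraries of these groups thus did not all come from the same mice. How much of the spread is technical is not known.

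Effector Treg arise when resting Treg receive antigen receptor signals. IRF4 is a transcription factor induced by that signal, and it binds DNA together with BATF, a member of the AP-1 family, at sites that join an AP-1 and an IRF element. BLIMP1, the product of Prdm1, is a transcriptional repressor that marks effector Treg and supports IL-10 production. ICOS is a costimulatory receptor, TIGIT and TIM-3 (Havcr2) are inhibitory receptors, KLRG1 is a lectin-like inhibitory receptor of terminally differentiated cells, CD103 (Itgae) pairs with the integrin beta 7 chain to bind E-cadherin, and CD44 is the hyaluronan receptor of activated T cells.

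Promoter windows of 250 bases upstream of the start were matched for 6 of the 9 genes (Prdm1, Irf4, Batf, Tigit, Cd44 and Havcr2) in RefSeq, build GRCm38.p6. The sequences of 3 of them are shown because the values below turn on these genes: Irf4 was the member furthest above nTreg in iTreg, Prdm1 was among the members furthest below, and Tigit was the member called between KO-labelled and WT-labelled nTreg. Each is written 5′ to 3′ on the strand of its gene, with a motif match in capitals. The Prdm1 window is chr10:44458749-44458998 on the minus strand and lies inside the span of the gene in GENCODE. Capitals in it mark an AP-1 site, the kind of site that BATF binds. The Irf4 window is chr13:30748983-30749232 on the plus strand, and its capitals mark a TATA box. The Tigit window is chr16:43664185-43664434 on the minus strand and held none of the motifs searched.
Prdm1: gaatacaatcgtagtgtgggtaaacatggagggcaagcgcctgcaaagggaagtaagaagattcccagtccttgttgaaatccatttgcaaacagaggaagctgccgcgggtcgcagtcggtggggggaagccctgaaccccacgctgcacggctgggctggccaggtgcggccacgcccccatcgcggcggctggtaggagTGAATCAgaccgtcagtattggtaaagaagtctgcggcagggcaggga
Irf4: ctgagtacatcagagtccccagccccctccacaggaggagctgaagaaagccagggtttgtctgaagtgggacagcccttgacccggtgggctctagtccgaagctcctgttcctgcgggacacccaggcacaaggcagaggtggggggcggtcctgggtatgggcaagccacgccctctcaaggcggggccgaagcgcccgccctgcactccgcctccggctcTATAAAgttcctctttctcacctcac
Tigit: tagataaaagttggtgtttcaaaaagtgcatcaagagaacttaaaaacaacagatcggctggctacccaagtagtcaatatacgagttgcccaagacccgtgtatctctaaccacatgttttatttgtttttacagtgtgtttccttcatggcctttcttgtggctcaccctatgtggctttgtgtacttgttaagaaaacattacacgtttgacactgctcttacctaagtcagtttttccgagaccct

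Motifs were searched on both strands of the 6 windows and of all 32536 promoter windows of the same length. The AP-1 site TGANTCA was found in Prdm1 at bases -48 to -42 from the start and in Havcr2 at -200 to -194, and it occurred in 6.73% of all windows. The TATA box TATAAA was found in Irf4 at -26 to -21 and occurred in 12.3% of all windows. No member window held the IRF element (GAAA, any 2 bases, GAAA; 2.98% of all windows), the BLIMP1 core GAAAGTGA (1.2%), the NF-kB site (GGGA, any base, TTTCC; 0.36%) or the XBP1 element TGACGTGG (0.569%). The spaced AP-1 and IRF composite (TTTC, any 4 bases, TGANTCA; 0.0984%) and the joined one (GAAA followed by TGANTCA; 0.101%), which both contain the AP-1 site, were not found in them either. These matches describe the letters of the windows and are not measured binding sites.

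Library totals ran from 6763458 to 15462894 reads. Syvn1 went against its label in nTreg, with 78.8 ± 7.33 CPM (read counts scaled to library size and TMM-normalised; mean ± SD, n = 3 throughout) under the WT label and 137 ± 7.94 under the KO label, while in iTreg it was 78.3 ± 20.5 and 63.6 ± 9.26. Reads are counted per gene, and whether they cover the floxed part is not known, so groups are called WT-labelled and KO-labelled below. Foxp3 was 621 ± 41.5 and 616 ± 51.7 CPM in WT-labelled and KO-labelled nTreg and 359 ± 46.5 and 319 ± 111 in iTreg. Summed Treg markers lay between 3860 and 5380 CPM in all 12 libraries, but single markers moved in opposite directions. Ikzf2 was 796 to 1270 CPM in nTreg and 21.3 to 34.5 in iTreg. Il2ra was 794 to 1220 CPM in nTreg and 2440 to 3590 in iTreg, and both were named after their values were seen. Xist, a transcript of female cells, reached 486 to 2035 CPM before TMM normalisation in replicate 3 of both nTreg groups and in replicate 2 of WT-labelled iTreg. It was at most 0.232 elsewhere. Ddx3y, a gene of the Y chromosome, was 0 CPM in replicate 2 of WT-labelled iTreg and 77.4 to 264 elsewhere on the same scale. Replicate 3 of both nTreg groups thus held RNA of both sexes. Replicate 2 of iTreg was female under the WT label and male under the KO label, so label and sex cannot be told apart within that pair. Summed macrophage and monocyte markers were 142 and 303 CPM in replicate 2 of WT-labelled and KO-labelled nTreg, 33.7 to 61.7 in the other nTreg libraries and 3.65 to 6.02 in iTreg. Summed plasma cell markers were 30.4 and 18.3 CPM in replicate 1 of WT-labelled and KO-labelled nTreg and 1.39 to 3.45 elsewhere. B cell markers were 17.9 to 18.5 CPM in WT-labelled nTreg, 12.7 to 13.8 in KO-labelled nTreg and 0.423 to 2.94 in iTreg. CD8 T cell markers stood at 8.42 to 21.3 CPM and dendritic cell markers at 0.951 to 4.39 over all libraries.

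The order of the 9 genes differed between both kinds of Treg. Per kilobase of exon, the scale on which genes can be compared, WT-labelled nTreg held most Tigit (101 ± 9.36 CPM per kb) and Icos (88.3 ± 14.2), whose difference was within their spread. Batf (38.5 ± 4.59), Itgae (36.5 ± 4.71), Klrg1 (29.1 ± 3.17), Irf4 (25.3 ± 1.53) and Cd44 (23.8 ± 0.733) followed, then Prdm1 (6.65 ± 0.848) and Havcr2 (0.978 ± 0.835). In WT-labelled iTreg, Irf4 stood first at 164 ± 27.5 CPM per kb. Icos (63.3 ± 7.75), Cd44 (46.2 ± 15.8), Tigit (36.4 ± 6.0), Itgae (14.4 ± 5.48) and Batf (11.4 ± 2.78) came next. Havcr2 (1.89 ± 1.49) and Prdm1 (0.45 ± 0.144) were low, and Klrg1 had no reads. Irf4, below Tigit, Icos and Batf in both nTreg groups (30.3 CPM per kb in KO-labelled nTreg, with Batf at 38.7), was thus the most abundant of the 9 in iTreg under both labels.

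**Figure D1:**
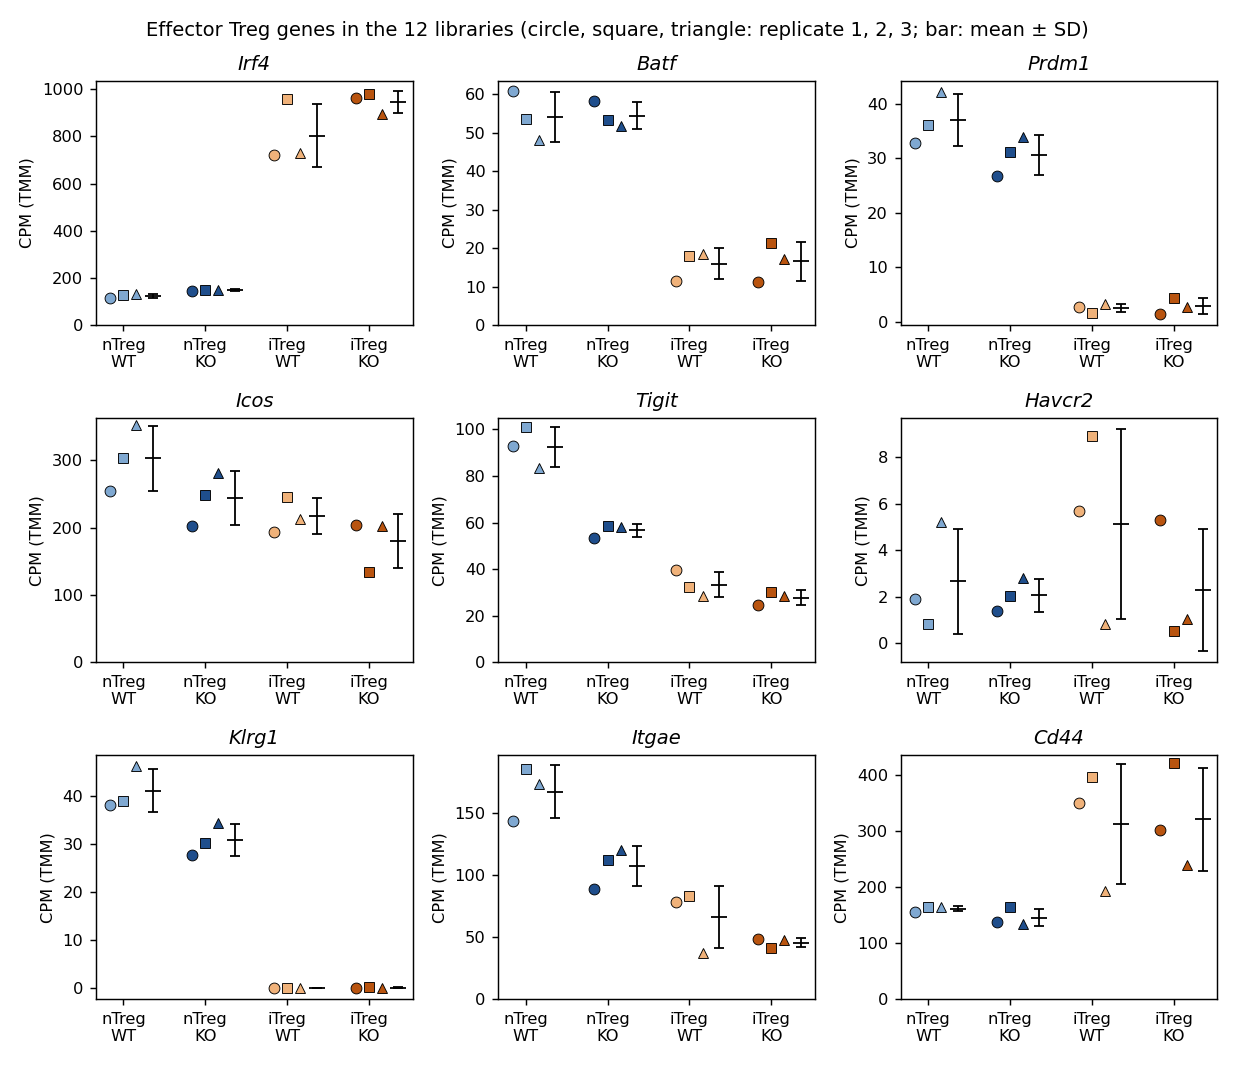
Normalised CPM (TMM) of each of the 9 genes in each library, by group, with a symbol per replicate and a bar for mean ± SD; each panel has its own scale. Irf4 and Cd44 sit higher in iTreg, Batf, Prdm1, Tigit, Itgae and Klrg1 sit lower, and Havcr2 is at most 8.89 CPM in every library.

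Of the 9 genes, 1 passed between KO-labelled and WT-labelled nTreg: Tigit fell by 0.70 on the log2 scale. The comparison asks how the effector programme of Treg taken directly from mice differs with the Hrd1 label. The other 8 did not pass. Fitted changes were negative for 7 of the 9 genes, against 5768 of the 12038 genes tested. The median log2 change of the 9 was -0.31 against 0.01 over all genes tested. Among all 12038 genes, 2.53% passed, and 0.341% passed as lower. In bulk RNA, fewer cells of an effector type and less RNA per cell cannot be told apart.

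Among the 3 transcription factors, Irf4 was 116, 127 and 130 CPM in WT-labelled nTreg and 146, 148 and 151 in KO-labelled nTreg. Every KO-labelled library was above every WT-labelled one, a pattern that 15.7% of all tested genes showed in that direction. The fitted log2 change of 0.26 (SE 0.12) did not pass (edgeR adjusted p = 0.35). Batf, the partner of IRF4, was 60.9, 53.4 and 48.0 CPM under the WT label and 58.2, 53.3 and 51.6 under the KO label. These libraries overlapped fully, and the log2 change was 0.01 (SE 0.21, edgeR adjusted p = 1.0). Prdm1 was 32.9, 36.1 and 42.2 CPM in WT-labelled libraries and 26.7, 31.2 and 34.0 in KO-labelled ones. The KO-labelled library was the lower one in each pair of the same number, but the groups overlapped and the log2 change of -0.28 (SE 0.27) did not pass (edgeR adjusted p = 0.70). The share of all tested genes that were lower in every such pair was not computed, which also limits the pair ratios given below. Plasma cells also make Prdm1, and their marker sums were highest in replicate 1 of both groups. Most of these sums came from Igj (27.9 and 16.7 CPM), named after its values were seen. Prdm1 was the lowest of its group in replicate 1 under both labels. The part of plasma cells in the values was not tested.

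Among the receptors, Tigit was 93.1, 101 and 83.5 CPM in WT-labelled nTreg and 53.2, 58.6 and 58.2 in KO-labelled nTreg. The KO-labelled libraries were all lower, as for 14.1% of tested genes, and they were at 0.572 to 0.697 of the WT-labelled library of the same number. Tigit was 1.63-fold lower (log2 change -0.70, SE 0.13, edgeR adjusted p = 0.011; 0.0074 with a block for the replicate number). That call depended on the libraries: it was lost without replicate 1 (adjusted p = 0.05, just above the threshold) or 2 (0.068) of WT-labelled nTreg or replicate 1 of KO-labelled nTreg (0.062), with log2 changes of -0.70, -0.64 and -0.66. Without the 3 libraries with Xist the adjusted p was 0.13 (log2 change -0.79), and without both nTreg libraries numbered 2 it was 0.20 (-0.66). TIGIT is also made by NK cells, whose summed markers lay between 6.84 and 21.2 CPM in nTreg with overlapping groups. The sum was highest in replicate 2 of both groups, where Tyrobp was 7.36 and 16.3 CPM. In these libraries Klrb1c was 5.1 and 2.27 CPM, Eomes 7.64 and 2.39, and Ncr1 and Klrd1 at most 0.142. Summed macrophage and monocyte markers were highest in the same libraries, at 142 and 303 CPM, so the sum of NK markers may not stand for NK cells alone. Of the NK markers Eomes alone did not overlap, at 3.26 to 7.64 CPM under the WT label and 0.695 to 2.39 under the KO label. These single NK markers were named after their values were seen, and the parts of NK cells and macrophages in the result were not tested. The sums of B cell markers and of Treg markers (4820 to 5280 CPM under the WT label, 4580 to 4790 under the KO label) also did not overlap between the nTreg groups and were lower under the KO label, as Tigit was; their part was not tested either.

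Icos, the costimulatory receptor, was 254, 303 and 352 CPM in WT-labelled nTreg and 202, 248 and 282 in KO-labelled nTreg. The groups overlapped. The KO-labelled library was at 0.794 to 0.819 of its same-numbered partner in all 3 pairs, a pattern whose share over all tested genes was not computed. Its log2 change of -0.31 (SE 0.18) did not pass (edgeR adjusted p = 0.51; 0.27 with the block). Klrg1 was 38.1, 38.9 and 46.2 CPM under the WT label and 27.7, 30.2 and 34.3 under the KO label. The KO-labelled libraries were all lower, at 0.727 to 0.777 of their partners, and the log2 change of -0.42 (SE 0.23) did not pass (edgeR adjusted p = 0.47; 0.074 with the block). Havcr2 rested on 75 reads in WT-labelled and 70 in KO-labelled nTreg and was 1.92, 0.849 and 5.21 CPM against 1.39, 2.02 and 2.81. Its groups overlapped, and the change did not pass (log2 change -0.41, SE 0.92, edgeR adjusted p = 0.90). Macrophages also make Havcr2, and in the 2 nTreg libraries with the highest macrophage sums it was 0.849 and 2.02 CPM; their part in the values was not tested.

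For the adhesion receptors, Itgae was 143, 185 and 173 CPM in WT-labelled nTreg and 89.1, 112 and 120 in KO-labelled nTreg. The groups did not overlap, and the KO-labelled libraries stood at 0.604 to 0.692 of their partners. Its log2 change of -0.65 (SE 0.24), close in size to that of Tigit but with a larger error, did not pass (edgeR adjusted p = 0.24; 0.12 with the block). That error draws on the spread in all 12 libraries. The coefficient of variation of Itgae was 12.9% and 14.8% in the nTreg groups and 38.0% in WT-labelled iTreg. Without replicate 3 of WT-labelled iTreg the change in nTreg passed (log2 change -0.64, edgeR adjusted p = 0.02). Cd44 was 156, 164 and 165 CPM against 138, 164 and 135, and the groups overlapped (log2 change -0.15, SE 0.24, edgeR adjusted p = 0.85). Counting is per gene, so the 9 annotated transcripts of Cd44 cannot be separated.

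Klrg1, Tigit and Itgae were thus lower and Irf4 higher without overlap between the nTreg groups, against 29.8% of all tested genes with no overlap in either direction. How many of these passed depended on the fit. With only the 6 nTreg libraries, which left 11208 genes, all 4 passed (adjusted p 0.04 for Irf4, 0.001 for Tigit, 0.018 for Itgae and 0.046 for Klrg1), where 10.2% of tested genes did. With limma voom and quality weights, Tigit, Itgae (0.02) and Klrg1 (0.021) passed, against 8.91% of tested genes. With the replicate block 9.0% of tested genes passed and Tigit was the single member among them.

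**Figure D2:**
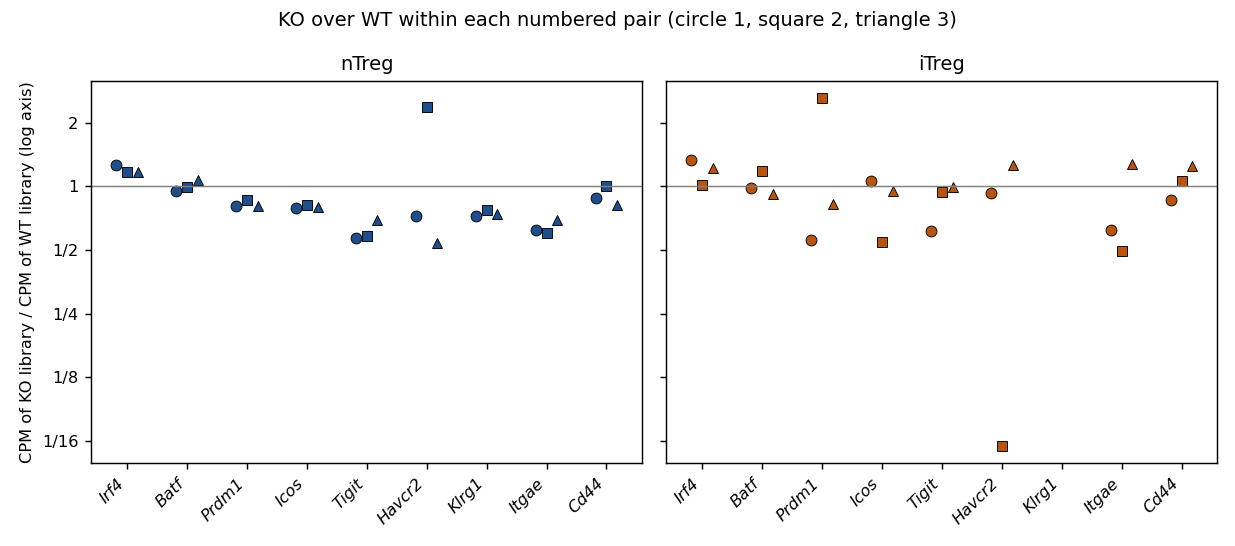
Ratio of the KO-labelled to the WT-labelled library of the same replicate number (normalised CPM, log axis) for each gene in nTreg and iTreg, with points for the 3 numbers and a line at equality. In nTreg all points of Tigit, Itgae, Klrg1, Icos and Prdm1 lie below 1 and those of Irf4 above it, while in iTreg most genes have points on both sides. Klrg1 has no ratio in iTreg. How many of all tested genes lie on the same side in every pair was not computed.

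In iTreg none of the 9 genes passed between KO-labelled and WT-labelled libraries, and none separated the groups without overlap. Of all genes tested, 0.183% passed and 9.63% did not overlap. The edgeR count of members was also 0 with DESeq2 (which called 0.822% of genes), limma voom (0.266%) and the replicate block (0.947%), and 1 member, Itgae, had an unadjusted p under 0.05. Over the 8 genes other than Klrg1, which had 0 and 2 reads in these groups, the median log2 change was -0.11, with 4 positive and 4 negative.

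Irf4 was 721, 959 and 730 CPM in WT-labelled and 964, 978 and 893 in KO-labelled iTreg, so that the single high WT-labelled library overlapped the other group. Its log2 change of 0.23 (SE 0.11) did not pass (edgeR adjusted p = 0.70). Batf was 11.5, 17.9 and 18.5 against 11.3, 21.3 and 17.1 CPM (log2 change 0.05, SE 0.22, edgeR adjusted p = 0.98), with replicate 1 the lowest of both groups. Prdm1 stayed between 1.46 and 4.33 CPM in all 6 libraries, and its groups overlapped (log2 change 0.18, SE 0.34, edgeR adjusted p = 0.95).

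Tigit was 39.5, 32.2 and 28.6 CPM in WT-labelled and 24.4, 30.3 and 28.6 in KO-labelled iTreg. The groups overlapped, and only replicate 1 showed a ratio (0.619) like those in nTreg; the other ratios were 0.942 and 0.999. The log2 change was -0.27 (SE 0.13, edgeR adjusted p = 0.70). Icos was 193, 245 and 213 against 204, 134 and 203 CPM, with 1 low library, replicate 2 under the KO label (log2 change -0.27, SE 0.18, edgeR adjusted p = 0.80). That library also had the lowest Foxp3, 191 CPM, and the lowest sum of Treg markers, 3860 CPM; whether these bear on Icos was not tested. Havcr2 was 5.7, 8.89 and 0.813 against 5.32, 0.528 and 1.03 CPM, so it was above 5 CPM in 3 of 6 libraries spread over both labels (log2 change -1.18, SE 0.89, edgeR adjusted p = 0.82).

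Itgae was 77.9, 83.0 and 37.2 CPM in WT-labelled and 48.3, 41.2 and 47.6 in KO-labelled iTreg. Replicate 3 under the WT label was below all KO-labelled libraries and the other WT-labelled libraries were above them. The log2 change was -0.53 (SE 0.24, edgeR adjusted p = 0.65), and without that replicate it was -0.82 with adjusted p = 0.044. Cd44 was 350, 396 and 193 CPM against 303, 421 and 240, lowest in replicate 3 of both groups (log2 change 0.04, SE 0.24, edgeR adjusted p = 0.99). Replicate 3 of WT-labelled iTreg was thus the lowest of its group for both adhesion receptors, and for Tigit and Havcr2 as well.

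The effects of the KO label in iTreg and nTreg were compared directly, as an interaction term. None of the 9 genes passed this edgeR test of the difference, nor with DESeq2 or limma voom. Of all genes 0.291% passed with edgeR, and DESeq2 called 140 genes and limma voom 98. Tigit, the 1 member with an unadjusted p under 0.05, had a difference of 0.44 (SE 0.19, edgeR adjusted p = 0.62), so the call of Tigit in nTreg is not shown to be particular to nTreg. Prdm1 differed by 0.46 (SE 0.43, edgeR adjusted p = 0.95) and Irf4 by -0.03. With the block, which called 1.80% of genes, no member passed (Tigit adjusted p = 0.29).

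**Figure D3:**
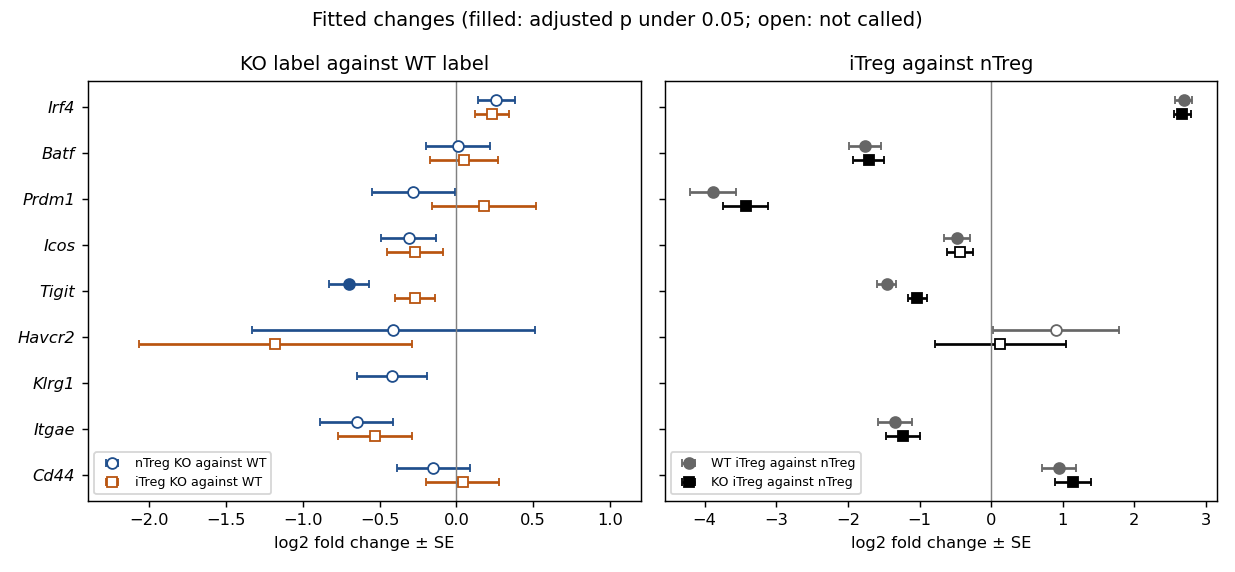
Fitted log2 fold change ± SE of each gene for KO against WT label (left, in nTreg and iTreg) and for iTreg against nTreg (right, in WT-labelled and KO-labelled libraries), with filled symbols for an adjusted p under 0.05. Only Tigit in nTreg is filled on the left, while on the right Irf4 and Cd44 are filled above 0 and Batf, Prdm1, Tigit and Itgae below it under both labels; Klrg1 is drawn for nTreg KO against WT alone, since its iTreg groups held 0 and 2 reads.

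Between iTreg and nTreg the 9 genes split. In WT-labelled libraries 8 passed: Irf4 and Cd44 rose, and Batf, Prdm1, Icos, Tigit, Itgae and Klrg1 fell, while Havcr2 did not pass. In KO-labelled libraries 7 passed in the same directions, with Icos and Havcr2 left out. Passing was common in both comparisons, with 65.2% of all tested genes in WT-labelled libraries (34.8% higher, 30.4% lower) and 61.9% in KO-labelled ones (32.1% higher, 29.8% lower), so these counts alone do not set the 9 genes apart. The same 8 and 7 genes did not overlap between groups, as did 71.3% and 66.9% of all tested genes. Both comparisons use separate libraries. Cells from the mouse and cells from culture differ in source and handling as well as in kind, which cannot be told apart.

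Irf4 showed the largest rise of the 9. It went from 124 ± 7.52 CPM in WT-labelled nTreg to 803 ± 135 in WT-labelled iTreg, 6.48-fold higher (log2 change 2.69, SE 0.12, edgeR adjusted p = 2e-08). With the KO label it went from 149 ± 2.81 to 945 ± 45.5 CPM (log2 change 2.67, SE 0.12, edgeR adjusted p = 3.5e-08). Even the lowest iTreg library (721 CPM) was far above the highest nTreg library (151 CPM).

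Batf moved the opposite way to its partner. It was 54.1 ± 6.45 CPM in WT-labelled nTreg and 16 ± 3.91 in WT-labelled iTreg, 3.38-fold lower (log2 change -1.76, SE 0.22, edgeR adjusted p = 2.7e-05). Under the KO label Batf was 54.4 ± 3.42 and 16.6 ± 5.05 CPM (log2 change -1.71, SE 0.22, edgeR adjusted p = 4.1e-05). Per kilobase of exon, the ratio of Irf4 to Batf was 0.544, 0.681 and 0.775 in WT-labelled nTreg and 18, 15.3 and 11.3 in WT-labelled iTreg. In KO-labelled libraries it was 0.719, 0.799 and 0.842 in nTreg and 24.5, 13.1 and 15 in iTreg. Batf transcripts thus outnumbered Irf4 transcripts per kilobase in every nTreg library, and Irf4 outnumbered Batf more than 10-fold in every iTreg library.

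Prdm1, which IRF4 is known to induce in effector Treg, also fell. It was 37.1 ± 4.73 CPM in WT-labelled nTreg and 2.63, 1.66 and 3.25 in WT-labelled iTreg, 14.8-fold lower (log2 change -3.89, SE 0.32, edgeR adjusted p = 7.5e-07). In KO-labelled libraries it was 30.6 ± 3.7 CPM in nTreg and 1.46, 4.33 and 2.7 in iTreg (log2 change -3.43, SE 0.31, edgeR adjusted p = 2.5e-06).

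Klrg1 showed the widest gap of the 9. Its 3 WT-labelled nTreg libraries held 1030 reads in all and those of WT-labelled iTreg held 0. Set against a floor of 3 counts over the group, Klrg1 was at least 526-fold lower in iTreg (edgeR adjusted p = 6.6e-08). Reads in KO-labelled libraries numbered 1037 in nTreg and 2 in iTreg, both in replicate 2, a ratio of 486 with a 95% exact counting interval of 134 to 4020. NK cells also make KLRG1, and their marker sums were 26.1 to 56.8 CPM in iTreg and 6.84 to 21.2 in nTreg. The higher iTreg sums came from Klrd1 (20.8 to 54.8 CPM in iTreg, at most 0.591 in nTreg), whereas Klrb1c (2.27 to 5.1 CPM in nTreg, at most 0.0904 in iTreg) and Tyrobp (2.2 to 16.3 CPM in nTreg, at most 0.0904 in iTreg) were higher in nTreg, as Klrg1 was. Ncr1 had no reads in iTreg and at most 0.886 CPM in nTreg. Tyrobp was highest in replicate 2 of both nTreg groups, where summed macrophage and monocyte markers were highest too. The parts of NK cells and macrophages in the Klrg1 difference were not tested.

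Tigit fell from 92.4 ± 8.61 CPM in WT-labelled nTreg to 33.4 ± 5.51 in WT-labelled iTreg, 2.76-fold (log2 change -1.46, SE 0.13, edgeR adjusted p = 1.8e-06). In KO-labelled libraries, where nTreg started lower, Tigit was 56.6 ± 3.0 and 27.8 ± 3.03 CPM (log2 change -1.03, SE 0.13, edgeR adjusted p = 3.9e-05). WT-labelled nTreg, KO-labelled nTreg and both iTreg groups thus formed 3 steps without overlap, and the iTreg groups overlapped each other. Icos, in contrast, was close in all groups. It was 303 ± 48.7 CPM in WT-labelled nTreg and 217 ± 26.6 in WT-labelled iTreg, 1.4-fold lower (log2 change -0.48, SE 0.18, edgeR adjusted p = 0.037). That call was lost without any of 4 libraries: replicate 2 (adjusted p = 0.073) or 3 (0.14) of WT-labelled nTreg, or replicate 1 (0.12) or 3 (0.076) of WT-labelled iTreg. Without the 3 libraries with Xist its adjusted p was 0.11, and without both nTreg libraries numbered 2 it was 0.09. In KO-labelled libraries Icos was 244 ± 40.2 and 180 ± 40.3 CPM (log2 change -0.43, SE 0.18, edgeR adjusted p = 0.058). It passed there with the block (0.049, where 63.8% of genes passed), with RLE size factors (0.049) and with DESeq2 (0.033).

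Itgae fell from 167 ± 21.6 to 66.1 ± 25.1 CPM between WT-labelled nTreg and iTreg, 2.53-fold (log2 change -1.34, SE 0.24, edgeR adjusted p = 0.0004), and from 107 ± 15.9 to 45.7 ± 3.92 under the KO label (log2 change -1.23, SE 0.24, edgeR adjusted p = 0.00091). Gsg2 lies inside Itgae on the opposite strand with no shared exon bases, and the strand setting of the counting is not given. Gsg2 was 10.8 to 14.6 CPM in nTreg and 51.3 to 64.1 in iTreg, so it was higher where Itgae was lower. Cd44, the marker of activated T cells, rose from 162 ± 4.97 to 313 ± 107 CPM in WT-labelled libraries, 1.94-fold (log2 change 0.95, SE 0.24, edgeR adjusted p = 0.0044). The call was lost without the 3 libraries with Xist (log2 change 0.76, adjusted p = 0.076). Among KO-labelled libraries Cd44 went from 146 ± 15.8 to 321 ± 91.7 CPM (log2 change 1.14, SE 0.25, edgeR adjusted p = 0.0016).

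Havcr2 rested on few reads throughout, 203 in WT-labelled and 69 in KO-labelled iTreg. Its spread between libraries of a group, a biological coefficient of variation of 74.0%, was at the 98.6th percentile of tested genes, against 11.9% for Tigit, 12.1% for Irf4 and a median of 15.5%. The log2 change from nTreg to iTreg was 0.91 (SE 0.88, edgeR adjusted p = 0.38) in WT-labelled and 0.13 (SE 0.92, edgeR adjusted p = 0.91) in KO-labelled libraries. With errors of this size the data do not place Havcr2 above or below in any comparison.

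Other genes of the effector programme were read from 4 lists. Of all tested genes, 2.53% passed between the nTreg labels with edgeR, 8.91% with limma voom and 9.0% with the block. In iTreg these shares were 0.183%, 0.266% and 0.947%. DESeq2 called 496 of the 12038 genes in nTreg and 0.822% in iTreg. For the difference 0.291% passed with edgeR and 1.80% with the block, and DESeq2 called 140 of the 12038 genes and limma voom 98. Between iTreg and nTreg 34.8% passed as higher and 30.4% as lower under the WT label, and 32.1% and 29.8% under the KO label. Shares for unadjusted p-values were not computed. Of 35 other effector Treg genes (cytokines, chemokine receptors, TNF receptor members and surface molecules), none passed between the nTreg labels with edgeR (8 had an unadjusted p under 0.05, and DESeq2 called 2 and limma voom 6), and the median log2 change was -0.08. With the replicate block 3 passed as higher (Capg, Lgals1 and Myb) and 5 as lower (Il1rl1, Itgav, Itgb8, Lag3 and Pdcd1), names given after their values were seen. In iTreg 1 of 35 passed: Ccr8, a chemokine receptor of effector Treg, was 162, 170 and 178 CPM under the WT label and 316, 298 and 248 under the KO label (log2 change 0.75, SE 0.13, edgeR adjusted p = 0.043). The groups did not overlap, but the call was lost on leaving out any of 11 of the 12 libraries (highest adjusted p = 0.24), with a log2 change between 0.68 and 0.85. With the block, 5 of the 35 passed in iTreg: Ccr8 (adjusted p = 0.0073), Il10 (log2 change 3.03, SE 0.4, adjusted p = 0.0087), Ahr and Cxcr3 (0.038 each) as higher, and Gata3 (0.023) as lower. Il10, the suppressive cytokine of effector Treg, had a log2 change of 3.02 without the block that did not pass (edgeR adjusted p = 0.45). Its change in iTreg started from a low level. Under the WT label Il10 was lower in iTreg than in nTreg (log2 change -4.88, edgeR adjusted p = 0.00073). Under the KO label that change was -1.27 and did not pass (edgeR adjusted p = 0.17). For the difference of the KO effects none of the 35 passed with edgeR or limma voom (7 with an unadjusted p under 0.05; 3 called by DESeq2), and 5 passed with the block: Il10 (3.58, SE 0.46, adjusted p = 0.0077), Cxcr3 (0.034), Itgav (0.038) and Maf (0.044) as higher in iTreg relative to nTreg, and Myb (0.018) as lower. These blocked genes other than Ccr8 were named after their values were seen.

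The same 35 genes split between iTreg and nTreg in WT-labelled libraries, as the 9 did, with 11 higher, 17 lower and a median log2 change of -0.79 against 0.05 over all genes tested. Ccr8 rose from 29.8 ± 4.49 to 170 ± 8.1 CPM (log2 change 2.52, SE 0.14, edgeR adjusted p = 4.8e-08). Itgb8, the integrin chain with which Treg activate TGF-beta, fell from 24.5 ± 2.47 to 0.591 ± 0.252 CPM (log2 change -5.36, SE 0.31, edgeR adjusted p = 6e-08). Il1rl1, the IL-33 receptor of tissue Treg, fell from 69.3 ± 29.2 to 2.27 ± 0.249 CPM (log2 change -4.93, SE 0.4, edgeR adjusted p = 7.2e-07). In KO-labelled libraries 12 of the 35 passed as higher and 13 as lower.

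Resting Treg genes were the second list. Of 18 genes of the resting state, none passed between the nTreg labels with edgeR (2 with an unadjusted p under 0.05; 2 called by DESeq2 and 3 by limma voom) and the median was -0.25. With the block 4 passed as lower: Dapl1, Ets1, Foxo1 and Nsg2, named after their values were seen. None passed in iTreg with edgeR, DESeq2 or limma voom (2 with an unadjusted p under 0.05). Between iTreg and nTreg in WT-labelled libraries, 14 of 18 fell and 3 rose, with a median log2 change of -1.43. S1pr1, the receptor by which lymphocytes leave lymphoid tissue, fell from 594 ± 112 to 78.6 ± 13.6 CPM (log2 change -2.92, SE 0.34, edgeR adjusted p = 1.4e-05). Id3 fell as well (log2 change -1.40, SE 0.17, edgeR adjusted p = 1.6e-05), and Igfbp4 rose (1.88, SE 0.16, edgeR adjusted p = 1.2e-06). In KO-labelled libraries 4 passed as higher and 12 as lower.

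For the AP-1, NFAT, NF-kB and IRF factors that work with BATF and IRF4, 23 of 24 genes were tested. None passed between the labels with edgeR in nTreg (1 with an unadjusted p under 0.05; 1 called by DESeq2 and 2 by limma voom) or iTreg (3 unadjusted; 1 by DESeq2 and 0 by limma voom), with medians of -0.05 and -0.07. With the block Fosl2 passed as higher and Ikzf3 as lower in nTreg, again named after their values were seen. Between iTreg and nTreg in WT-labelled libraries 6 were higher and 10 lower. Irf8, the relative of IRF4 that can also bind with BATF, rose from 43.1 ± 4.8 to 742 ± 143 CPM (log2 change 4.11, SE 0.29, edgeR adjusted p = 3e-07). The AP-1 genes Fosl2 (8.7 ± 2.57 to 56.1 ± 22.6 CPM, edgeR adjusted p = 3.5e-05) and Fosl1 (0.0782 ± 0.0719 to 6.87 ± 0.947 CPM, edgeR adjusted p = 1.3e-06) rose too. Other members of both families fell: the IRF genes Irf1 (log2 change -1.02, edgeR adjusted p = 0.00019) and Irf2 (-1.0, edgeR adjusted p = 4.4e-05), and the AP-1 genes Fos (-4.86, edgeR adjusted p = 0.0028) and Junb (-1.24, edgeR adjusted p = 0.041), all 4 named after their values were seen. Of the 23, 7 passed as higher and 5 as lower in KO-labelled libraries.

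Protein partners and ligands of the receptors made up the last list, with 20 of 21 genes tested. In nTreg 1 passed: Cd96, which shares the ligand CD155 with TIGIT, was 258, 230 and 236 CPM under the WT label and 159, 145 and 148 under the KO label (log2 change -0.68, SE 0.15, edgeR adjusted p = 0.032). The groups did not overlap, and the size was close to that of Tigit. The call was lost on leaving out any of the 6 nTreg libraries (highest adjusted p = 0.15; log2 change -0.72 to -0.63), and with the block the adjusted p was 0.00027. None passed in iTreg with edgeR, DESeq2 or limma voom (2 with an unadjusted p under 0.05), and with the block Itgb7 did, as lower. Between WT-labelled iTreg and nTreg 7 were higher and 9 lower, with a median of -0.14. Itgb7, whose protein pairs with CD103, fell from 1020 ± 34.5 to 290 ± 60.3 CPM (log2 change -1.82, SE 0.16, edgeR adjusted p = 1.2e-06), so both chains of that integrin were lower in iTreg. Cd96 fell from 242 ± 14.7 to 51.3 ± 11.4 CPM (log2 change -2.24, SE 0.16, edgeR adjusted p = 2.4e-07), again in the direction of Tigit. Icosl, the ligand of ICOS, fell to 0.777 ± 0.34 CPM (log2 change -3.99, SE 0.44, edgeR adjusted p = 9.1e-06) from 12.7 ± 0.863 in nTreg, where B cell markers, of a cell type known to make it, were also present; their part was not tested. With the KO label 5 passed as higher and 8 as lower.

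**Figure D4:**
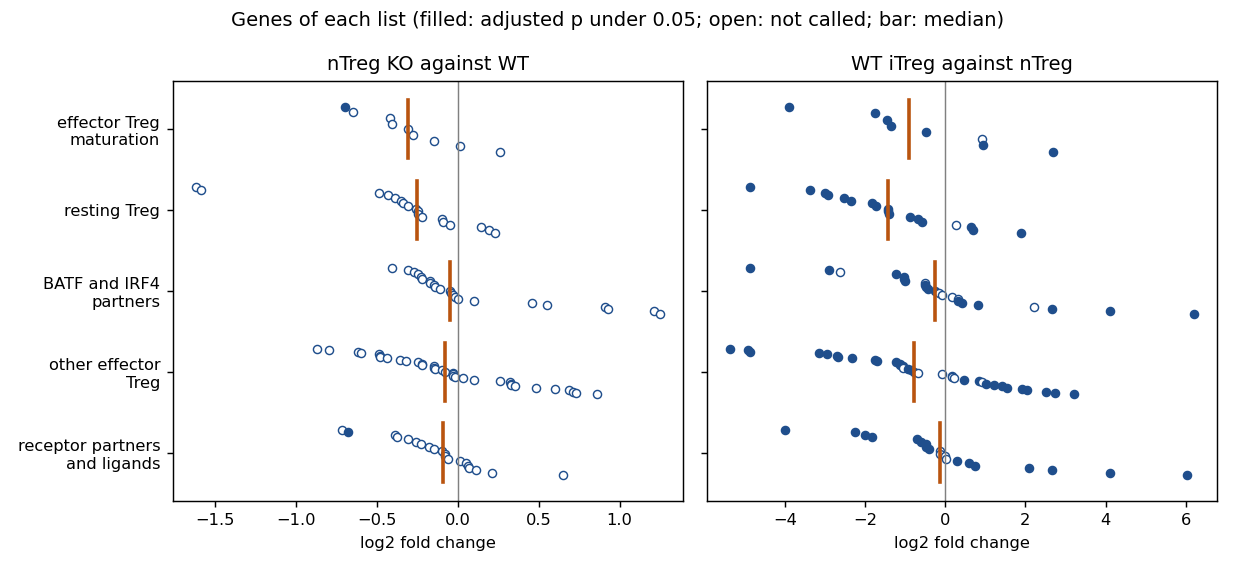
Log2 fold changes of the 9 genes and of the 4 lists for KO against WT label in nTreg (left) and for WT-labelled iTreg against nTreg (right), with a point per tested gene, filled where the adjusted p is under 0.05, and a bar at the median. On the left the medians lie between -0.31 and -0.05 with Tigit and Cd96 filled; on the right the resting genes have the lowest median (-1.43), and Klrg1 is left out.

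For each gene, the 2 genes with the closest pattern over the 12 libraries were found by the root-mean-square distance of centred log2 CPM, among 8675 genes whose log2 CPM averaged 3 or more. For Irf4 these were Pmepa1 (0.18) and Ssx2ip (0.19), for Batf Enpp4 (0.15) and Gimap5 (0.18), and for Prdm1 Gimap7 and L1cam (0.3 each). Icos was matched most closely, by Sp1 and Kdm6a (0.12 each), and Tigit by Faah and Krba1 (0.16 each). Klrg1 had Ptpn13 (0.55) and Dtx1 (0.62), Itgae had Dhx58 (0.22) and Arhgap5 (0.23), and Cd44 had Cnnm4 (0.15) and Caskin2 (0.17). Havcr2 had no close match, with Ulbp1 and Rgs12 at 0.84. These distances are a description over libraries that fall into iTreg and nTreg, a split which all genes share.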

How the data were processed

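The authors deposited raw RNA-seq counts by gene symbol, in 1 file per library. Per the submitters' processing notes, cutadapt 1.13, STAR, HTSeq 0.6.1p1, DESeq2 and build mm10 were used. The role of each tool, the annotation and the strand setting are not given in the sources used here. Counts were whole numbers, and no pair of replicates agreed within sampling noise (chi-square per degree of freedom 7.53 to 57.17).

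Counts were fitted with edgeR 4.0.16 (R 4.3.3, quasi-likelihood, robust, TMM), with a term per group over 12 libraries (8 residual degrees of freedom). Genes were filtered with filterByExpr (count 10, total 15). Adjusted p is Benjamini-Hochberg over 12038 genes, with 0.05 as threshold. There were 5 comparisons: the KO against the WT label in nTreg and in iTreg, their difference, and iTreg against nTreg under each label. CPM values used TMM, and log CPM a prior count of 2. Exon lengths and positions came from GENCODE M21 and promoters from RefSeq, by symbol. Floors and counting intervals hold only counting error, as no molecular identifiers were used to count molecules.

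Members, the 4 lists and the marker lists were chosen with earlier results of these data known. Named were the 9 members, Syvn1, Foxp3, the 2 genes nearest each member, and up to 3 called genes of smallest p per list in the nTreg, iTreg and WT-labelled iTreg against nTreg comparisons. Others are said to be named after their values were seen. Older symbols were used for Spi1, Nectin2, Adgre1 and Mzb1.

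Libraries of the same number within nTreg correlated in their deviations from group means (0.438 to 0.572; other numbers -0.421 to -0.054), as within iTreg (0.307 to 0.629; others -0.519 to 0.135), but not between nTreg and iTreg (-0.054 to 0.095). A replicate block within each kind of cell (4 residual degrees of freedom) is given for the KO comparisons. The pairing comes from the numbers in the labels and this check. In iTreg the pair numbered 2 joins a female WT-labelled and a male KO-labelled library. Other alternatives were RLE size factors, no filter, a filter of 5 CPM in 3 libraries, DESeq2 1.42.0, limma 3.58.1 voom, only the groups compared, libraries left out, and thinning to 6763458 reads. The scripts were tested on simulated data.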

Additional observations from a re-analysis of the deposited data

How the results depend on the processing

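Members called between the nTreg labels numbered 1 in the fit reported, 3 with limma voom, 4 with only the groups compared, 0 without those with Xist and also 0 without both nTreg libraries numbered 2, and 0 to 2 on leaving out 1 library; in iTreg, 0 to 1. Genes called in nTreg (304) were 496 with DESeq2, 1072 with voom, 1083 with the replicate block, 1142 with only the groups compared, 71 without the libraries with Xist, 103 without both numbered 2 and 167 to 432 without 1 library. In iTreg (22) they were 99 with DESeq2, 114 with the block, 0 with only the groups compared, 0 without the libraries with Xist, 7 without both numbered 2 and 0 to 64 without 1 library. For the difference (35) they were 140 with DESeq2, 98 with voom, 217 with the block, 1 without the libraries with Xist, 1 without both numbered 2 and 1 to 58 without 1 library. The cause was not tested, beyond that leaving out libraries leaves fewer samples.

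The replicate block changed 1 member call, Icos in KO-labelled iTreg against nTreg (log2 change -0.42, adjusted p 0.049 for 0.058), and no other. These signs turned, all of changes that did not pass: Batf in nTreg was -0.02 with RLE and with DESeq2, -0.01 without a filter and thinned, -0.04 without the libraries with Xist and -0.07 to 0.10 without 1 library. Havcr2 in nTreg was 0.32 without the libraries with Xist and -0.81 to 0.58 without 1 library. In iTreg, voom gave -0.21 for Prdm1, -0.16 for Batf and -0.19 for Cd44, and Prdm1 was -0.05 without the libraries with Xist; without 1 library Prdm1 was -0.22 to 0.48, Batf -0.16 to 0.27 and Cd44 -0.22 to 0.24. For the difference, Irf4 was 0.01 without a filter and with DESeq2, and 0.10 without the libraries with Xist, and voom gave -0.18 for Batf and -0.05 for Cd44; without 1 library Irf4 was -0.10 to 0.12, Batf -0.17 to 0.26, Icos -0.08 to 0.22, Itgae -0.17 to 0.31 and Cd44 -0.07 to 0.39. Havcr2 in KO-labelled iTreg against nTreg was -0.04 with the block and thinned, and -1.37 to 0.59 without 1 library. The fit with only the groups compared was not run for the difference. Depth limits Klrg1 in iTreg, with 0 and 2 reads, and the spread between libraries limits Havcr2.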
